A study of Sus scrofa with 8 samples.

Results

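Annexins are cytosolic proteins that bind negatively charged phospholipids when calcium rises, and so attach to the inner face of membranes or, once released, to the surface of cells. They take part in vesicle traffic, in the repair of torn membranes, in the damping of inflammation and in the assembly of plasmin on the cell surface, and many of them work together with a small calcium-binding protein of the S100 family. In the liver they are found in parenchymal, biliary, endothelial and immune cells, so a bulk measurement sums over all of these. The genes described here are the 10 annexins ANXA1, ANXA2, ANXA3, ANXA4, ANXA5, ANXA6, ANXA7, ANXA10, ANXA11 and ANXA13, taken by symbol from a table of 18103 genes and new transcripts. All 10 were listed in the table, and 9 of them had a value above 0 in every library.

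Hepatic RNA was sequenced as 8 libraries, each a pool of equal amounts from 2 male Landrace x Large White pigs, with 4 pools of the initial state and 4 pools of steatosis. The initial state, which the labels call Control and describe as healthy, was sampled at 4 months of age by laparotomy from animals on a control diet. The steatosis pools were sampled at 6 months of age after euthanasia, when the same animals had received a steatotic diet for 2 months. This diet was rich in saturated fat and fructose, with added cholesterol and sodium cholate. It was deficient in methionine, restricted in choline and lower in protein than the control diet, and the energy intake was higher. Diet, age and way of sampling therefore differed together between the groups and cannot be told apart. The SDs given are between pools of 2 animals, not between animals.

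Values are FPKM, the number of fragments mapped to a gene divided by its transcript length and by the size of the library, so that genes can be compared with each other. The relative depth of the libraries, read from the step between low values, lay between 95.9% and 100% of the deepest library. The hepatocyte marker ALB, the gene of serum albumin, was abundant in every library, with 33170 to 71000 FPKM. Pool 1 of the initial state stood apart by genes of other tissues. Its summed FPKM of 7 genes of stomach mucosa was 1525, against 5.64 to 28.6 in the other initial pools and 6.08 to 6.64 in steatosis, and that of 7 genes of skeletal muscle was 2777, against 0.82 to 20.8 and 0.1 to 0.35. Without this library the number of annexins called higher was also 2.

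Taking the family as a whole, most annexins stood higher in steatosis than at the initial state. ANXA1 rose 4.22-fold and ANXA4 rose 2.10-fold, ANXA2, ANXA5, ANXA6 and ANXA11 were 1.53 to 1.89 times higher, ANXA7 was almost level, ANXA3 and ANXA13 were higher on average with overlapping pools, and ANXA10 was seen mainly in a single initial pool. A gene was called when limma gave an adjusted p under 0.01 together with a change beyond 1 on the log2 scale, and 13175 genes that reached 0.3 FPKM in no fewer than 4 libraries were tested. Of the 10 members 9 passed this filter, 2 of these were called higher and 0 lower. Among all 13175 genes 792 (6.01%) were called higher and 44 (0.334%) lower. With an adjusted p under 0.05 and no limit on the fold, 6 of 9 members were higher and 0 lower, against 26.7% and 2.28% of all genes. The same 6 members had all 4 steatosis pools above all 4 initial pools, which held for 29.6% of all genes, and 0 members had all steatosis pools below, which held for 2.53%.

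The whole distribution leaned upward in the deposited values. The median log2 fold change was 0.25 over all tested genes and 0.81 over the 9 members, and 8 of 9 members lay above the median of all genes. After scaling each library by the median ratio to a common reference, the median of all genes was -0.01, and the calls over all genes changed from 792 higher and 44 lower to 411 higher and 83 lower. Relative to the median of all genes, the log2 fold change was 1.83 for ANXA1, 0.82 for ANXA4, 0.67 for ANXA5, 0.55 for ANXA2, 0.49 for ANXA6, 0.36 for ANXA11 and -0.25 for ANXA7. Thus ANXA7 was the member whose direction turned with the scaling, while the estimates of the other 8 tested members stayed above 0 under all 19 alternatives.

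**Figure D1:**
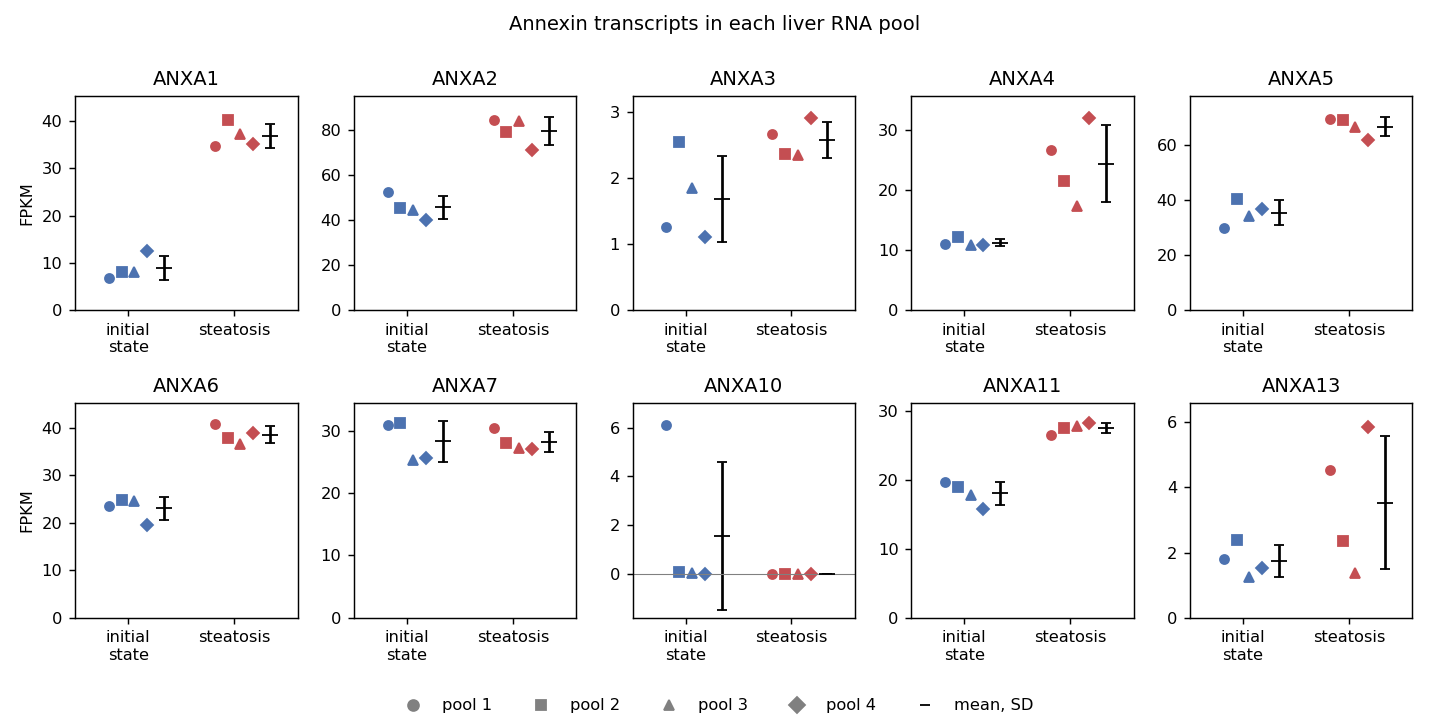
FPKM of the 10 annexins in the 4 initial-state pools (blue) and the 4 steatosis pools (red), each symbol being a pool number, with the mean and SD over 4 pools in black and a separate linear axis for each gene. The pools are apart for ANXA1, ANXA2, ANXA4, ANXA5, ANXA6 and ANXA11 and overlap for ANXA3, ANXA7 and ANXA13, whereas ANXA10 reached 6.11 FPKM in initial pool 1 and at most 0.06 FPKM elsewhere.

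The order of the annexins by level differed in part between the states. At the initial state ANXA2 was the most abundant with 45.7 FPKM, followed by ANXA5, ANXA7, ANXA6, ANXA11, ANXA4 and ANXA1 with 35.4, 28.3, 23.1, 18.04, 11.3 and 8.89 FPKM, and then by ANXA13, ANXA3 and ANXA10 with 1.74, 1.68 and 1.55 FPKM. Between neighbours in this order only ANXA7 and ANXA6, ANXA11 and ANXA4, and ANXA1 and ANXA13 had pools that did not overlap. In steatosis ANXA2 and ANXA5 led with 79.9 and 66.8 FPKM, apart from each other and from all others. They were followed by ANXA6 and ANXA1 with 38.5 and 36.9 FPKM, which overlapped, and by ANXA7, ANXA11 and ANXA4 with 28.2, 27.5 and 24.4 FPKM, which overlapped as well. ANXA13 and ANXA3 remained low with 3.54 and 2.57 FPKM and overlapped, and ANXA10 was listed at 0. ANXA2 was the highest annexin in 8 of 8 libraries.

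ANXA1, also known as lipocortin 1, is induced by glucocorticoids, restrains the release of arachidonic acid and signals through formyl peptide receptors in the resolution of inflammation. It lies on chromosome 1 from 226414200 to 226431963 (gene ID 396942; all coordinates are of assembly Sscrofa11.1). Its FPKM in pools 1 to 4 was 6.8, 8.14, 8.05 and 12.56 at the initial state, and 34.77, 40.37, 37.33 and 35.1 in steatosis. The lowest steatosis pool was well above the highest initial pool, which was pool 4. The mean went from 8.89 ± 2.52 (SD, n = 4) to 36.9 ± 2.58 FPKM (SD, n = 4), with a log2 fold change of 2.08 (adjusted p 5.6e-05, SE 0.17) and a fold of 4.22 (95% interval 3.25 to 5.48). Its estimate exceeded that of 99.1% of the tested genes. ANXA1 was called higher under all 18 alternatives that kept these limits, with log2 fold changes between 1.81 and 2.26, and without initial pool 1 it was 1.96.

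**Figure D2:**
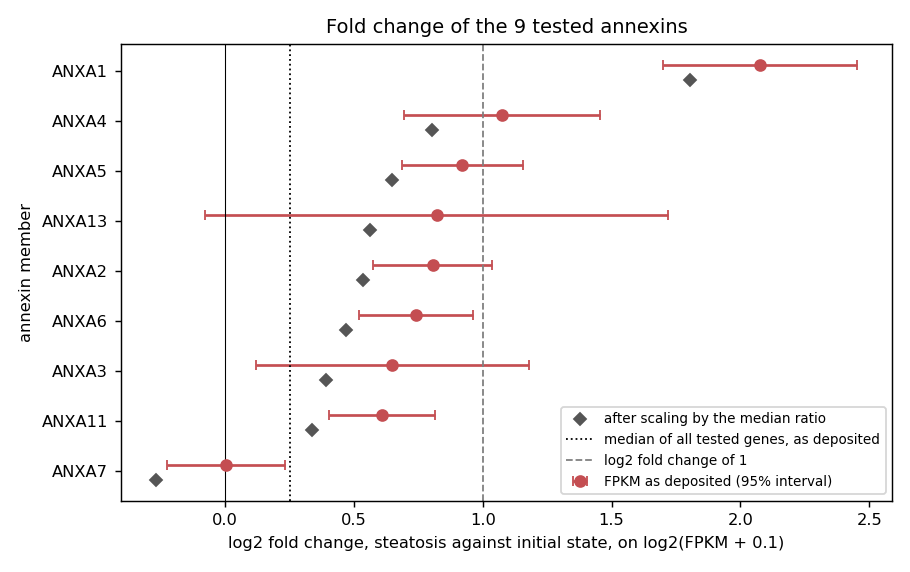
Log2 fold change of steatosis against the initial state for the 9 tested annexins, on the log2(FPKM + 0.1) scale, with red points and 95% intervals from the limma fit to the deposited values and grey diamonds for the estimate after scaling by the median ratio. ANXA1 lies farthest to the right at 2.08, and ANXA7 lies at 0.00 as deposited and at -0.27 after scaling, while the dotted line marks the median of all tested genes (0.25) and the dashed line the limit of 1.

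S100A11, the S100 protein that binds the amino terminus of ANXA1, rose beside it. In pools 1 to 4 it had 26.8, 34.5, 28.9 and 32.1 FPKM at the initial state and 136.5, 109.3, 113.0 and 115.7 FPKM in steatosis, so the groups were far apart. The log2 fold change was 1.95 (adjusted p 8.17e-06, SE 0.11), and the call held under all 18 alternatives. The log2 ratio of S100A11 to ANXA1 within a library, which does not depend on scaling between libraries, was 1.80 ± 0.32 (SD, n = 4) at the initial state and 1.68 ± 0.23 (SD, n = 4) in steatosis. The difference of -0.12 was within the spread between pools (two-sided exact permutation test, p = 0.543, and 0.743 adjusted over the 2 ratios tested). The smallest p that 4 pools against 4 allow is 0.0286. The formyl peptide receptors FPR1, FPR2 and FPR3 were not analysed here.

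Most markers of macrophages moved in the same direction as ANXA1. Of 10 macrophage genes 3 were called higher (MARCO, CD68 and TYROBP) and 0 lower, against 6.01% and 0.334% of all tested genes. With an adjusted p under 0.05 and no fold limit 8 were higher, against 26.7% of all genes. The exceptions were CD163 and C1QA, with overlapping pools and a limma adjusted p of 0.0889 and 0.73. CD68 here is gene ID 103158530. The CD68 among the selected transcripts of the paper has another gene ID, and its values are not given here. The sum over the list was 726.2 to 1008 FPKM at the initial state and 1247 to 1448 FPKM in steatosis. No defining macrophage gene was at 0 in any library. TYROBP, an adaptor of myeloid receptors, had 42.8 ± 4.06 FPKM (SD, n = 4) at the initial state and 115.6 ± 4.66 FPKM (SD, n = 4) in steatosis. The complement genes C1QB, C1QC and C1QA, the most abundant of the list, had means of 293.3, 226.5 and 200.1 FPKM at the initial state and 453.2, 306.7 and 207.9 FPKM in steatosis. The part of macrophages in the annexin values was not tested, and in these bulk pools fewer or more cells of a type and less or more RNA per cell cannot be told apart.

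Among the genes whose pattern over the 8 libraries was most like that of ANXA1 were ITGB3 and GP91-PHOX, by the root mean square difference of log2 values centred on each gene's own mean, among 10634 genes. ITGB3 codes for an integrin beta chain of platelets and other cells, and GP91-PHOX for a subunit of the phagocyte NADPH oxidase. Both differed from ANXA1 by 0.20 on the log2 scale, and their means went from 1.59 to 6.85 and from 5.07 to 23.9 FPKM. The nearest other annexin, ANXA5, came at rank 471 with a difference of 0.61. ANXA1 was therefore closer to many genes of other families than to any member of its own.

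ANXA2 forms a tetramer with S100A10, and this complex holds plasminogen and tissue plasminogen activator at the cell surface. The gene lies on chromosome 1 from 111588721 to 111635064 (gene ID 406192). Pools 1 to 4 had an FPKM of 52.57, 45.61, 44.5 and 40.26 at the initial state and 84.52, 79.38, 84.36 and 71.21 in steatosis. The groups did not overlap, and the highest initial value was that of pool 1. The mean was 45.7 ± 5.11 FPKM (SD, n = 4) and 79.9 ± 6.25 FPKM (SD, n = 4), with a log2 fold change of 0.81 (adjusted p 0.000587, SE 0.10), under the fold limit. Without initial pool 1 it was 0.88, and after scaling by the median ratio 0.53 (adjusted p 0.00772).

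S100A10 followed ANXA2. It had 78.4, 116.4, 103.3 and 96.6 FPKM in initial pools 1 to 4 and 189.0, 158.2, 154.8 and 152.1 FPKM in steatosis, again without overlap, and its log2 fold change was 0.74 (adjusted p 0.00288, SE 0.13). After scaling by the median ratio the log2 fold change was 0.46 (adjusted p 0.0288). Within a library, the log2 ratio of S100A10 to ANXA2 was 0.58, 1.35, 1.21 and 1.26 in the initial pools and 1.16, 0.99, 0.88 and 1.09 in the steatosis pools. Pool 1 of the initial state, with the lowest ratio, also held the genes of stomach and skeletal muscle, whose part in this ratio was not tested. The mean ratio was 1.10 ± 0.35 (SD, n = 4) and 1.03 ± 0.12 (SD, n = 4), a difference of -0.07 within the spread between pools (two-sided exact permutation test, p = 0.743, and 0.743 adjusted over the 2 ratios). Without initial pool 1 the difference was -0.24 (exact permutation test, p = 0.0571, the smallest p then possible being 0.0286). The other initial pools all had ratios above those of every steatosis pool. Without initial pool 2 the difference was 0.01.

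Among the proteins that ANXA2 and S100A10 handle at the cell surface, PLAT, the tissue plasminogen activator, rose from 0.933 to 2.85 FPKM, which is 1.64 on the log2 scale (adjusted p 0.00538, SE 0.33). PLAUR, the urokinase receptor, had 2.05 and 3.72 FPKM and a log2 fold change of 0.83 (adjusted p 0.000986, SE 0.12), with pools apart but under the fold limit. PLG, the gene of plasminogen and a hepatocyte product, had 1038 and 1153 FPKM and a log2 fold change of 0.16 (adjusted p 0.391, SE 0.13), with overlapping pools. AHNAK, a large scaffold bound by the ANXA2 complex, had 9.47 and 15.4 FPKM and a log2 fold change of 0.73 (adjusted p 0.0377, SE 0.23), and its pools overlapped. The call of PLAT held without initial pool 1 (1.98, adjusted p 0.00041), while without any other single library its adjusted p lay between 0.0109 and 0.0192, and it was 0.0147 after median ratio and 0.0135 after upper quartile scaling.

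ANXA5 binds phosphatidylserine exposed on dying cells and platelets and is widely used as a stain for apoptosis. It lies on chromosome 8 from 102387833 to 102420868 (gene ID 100521982). At the initial state pools 1 to 4 had an FPKM of 29.89, 40.6, 34.31 and 36.96, and in steatosis of 69.68, 69.03, 66.53 and 62.03. All steatosis pools were above all initial pools, and pool 1 was the lowest at the initial state and the highest in steatosis. From 35.4 ± 4.51 FPKM (SD, n = 4) the mean went to 66.8 ± 3.47 FPKM (SD, n = 4), with a log2 fold change of 0.92 (adjusted p 0.00032, SE 0.11) and a fold of 1.89, just short of the fold limit. Without initial pool 1 it was 0.84, and after scaling by the median ratio 0.65 (adjusted p 0.00443).

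ANXA6, built from a doubled annexin core, links endosomes and the plasma membrane to actin and takes part in the handling of cholesterol in late endosomes. On chromosome 16 it spans 71857229 to 71913723 (gene ID 100515934). The 4 initial pools had an FPKM of 23.44, 24.69, 24.58 and 19.53 and the 4 steatosis pools of 40.74, 37.74, 36.53 and 38.84, all of them above. The mean was 23.1 ± 2.42 FPKM (SD, n = 4) and then 38.5 ± 1.79 FPKM (SD, n = 4), and the log2 fold change was 0.74 (adjusted p 0.000704, SE 0.10), or 0.47 (adjusted p 0.0028) after scaling by the median ratio and 0.75 without initial pool 1.

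ANXA11, which tethers RNA granules to lysosomes and binds the calcium sensors PDCD6 and S100A6, behaved much alike. It lies on chromosome 14 from 81835205 to 81879565 (gene ID 100156481). For pools 1 to 4 the FPKM was 19.62, 18.89, 17.83 and 15.81 at the initial state and 26.53, 27.52, 27.72 and 28.14 in steatosis, apart from each other. With 18.04 ± 1.66 FPKM (SD, n = 4) and 27.5 ± 0.683 FPKM (SD, n = 4), the log2 fold change was 0.61 (adjusted p 0.00133, SE 0.09). It was 0.34 after scaling by the median ratio, where the adjusted p of 0.0156 was over 0.01, and 0.65 without initial pool 1. By its pattern over the libraries, ANXA6 was the annexin nearest to ANXA2, at rank 21, and ANXA11 was at rank 43.

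ANXA7, or synexin, was described as a factor that makes secretory granules aggregate, and it binds sorcin and PDCD6. It lies on chromosome 14 from 76205238 to 76234646 (gene ID 100156638). The FPKM of pools 1 to 4 was 30.96, 31.25, 25.27 and 25.63 at the initial state and 30.51, 28.06, 27.28 and 27 in steatosis. The pools overlapped completely, and pools 1 and 2 were the highest in both groups. The mean was 28.3 ± 3.27 FPKM (SD, n = 4) and 28.2 ± 1.6 FPKM (SD, n = 4), and the log2 fold change was 0.00 with a 95% interval from -0.23 to 0.23 (adjusted p 0.99), that is, a fold between 0.855 and 1.17. After scaling by the median ratio it was -0.27 (adjusted p 0.0712), and without initial pool 1 it was 0.05. The genes nearest to its pattern were RBM18, WDR12 and NIPSNAP2, at differences of 0.037, 0.040 and 0.044 on the log2 scale.

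Of the partners of ANXA7 and ANXA11, S100A6, or calcyclin, rose from 7.61 ± 4.76 to 20.9 ± 4.70 FPKM (SD, n = 4 each), which is 1.61 on the log2 scale (adjusted p 0.00953, SE 0.36). Its initial pools were uneven, with 14.3 FPKM in pool 1 and 3.7 to 7.59 FPKM in the others, and without pool 1 the log2 fold change was 1.98 (adjusted p 0.000774). Without any other single library the adjusted p lay between 0.0176 and 0.0285, over the limit, and it was 0.0265, 0.0251 and 0.0102 after scaling by the median ratio, the upper quartile and a common sum. SRI, or sorcin, had 24.2 and 28.9 FPKM with overlapping pools and an adjusted p of 0.128. PDCD6 had 30.7 and 34.1 FPKM, and its pools did not overlap although the log2 fold change was only 0.16 (adjusted p 0.156, SE 0.08). CHMP4B, a subunit of the ESCRT-III complex that closes membrane wounds, had 37.4 and 37.3 FPKM. After scaling by the median ratio the log2 fold changes of SRI, PDCD6 and CHMP4B were -0.02, -0.12 and -0.28 (adjusted p 0.945, 0.371 and 0.037).

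Other genes of membrane repair differed among themselves. MYOF, or myoferlin, rose from 0.498 to 1.57 FPKM, which is 1.55 on the log2 scale (adjusted p 0.00336, SE 0.28). Its relative DYSF, or dysferlin, had 3.29 and 4.14 FPKM and a log2 fold change of 0.32 (adjusted p 0.217, SE 0.18). TRIM72, which seals wounds in muscle, had 1.47 FPKM in initial pool 1 and 0.01 to 0.14 FPKM in the other 7 libraries and did not pass the filter. S100A4, which binds ANXA2, had 1.31 and 2.22 FPKM with overlapping pools (adjusted p 0.245). The adjusted p of MYOF was 0.0136, 0.0122 and 0.0116 without steatosis pools 2, 3 and 4, and its call held without each of the other libraries.

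Counted together, 15 of 18 partner genes were listed and 14 were tested, of which 4 were called higher (S100A11, PLAT, S100A6 and MYOF) and 0 lower, against 6.01% and 0.334% of all tested genes. With an adjusted p under 0.05 and no fold limit 7 were higher and 0 lower (26.7% and 2.28% of all genes), and 7 had all steatosis pools above all initial pools (29.6% of all genes). The median log2 fold change of the 14 was 0.69, against 0.25 over all tested genes. Without initial pool 1 the count remained at 4. It was 2 without initial pool 2, 3 or 4 or steatosis pool 1, and 1 without steatosis pool 2, 3 or 4. S100A11 was the partner called under every one of these settings.

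ANXA4 is typical of secretory and absorptive epithelia, where it binds the inner side of the apical membrane. On chromosome 3 it spans 72623311 to 72654591 (gene ID 100312960). Its FPKM in pools 1 to 4 was 11.05, 12.16, 10.91 and 10.92 at the initial state and 26.72, 21.54, 17.31 and 32.06 in steatosis. The initial pools were almost equal, the steatosis pools were widely spread with pools 4 and 1 the highest and pool 3 the lowest, and the groups did not overlap. ANXA4 rose from 11.3 ± 0.603 FPKM (SD, n = 4) to 24.4 ± 6.39 FPKM (SD, n = 4), with a log2 fold change of 1.07 (adjusted p 0.0018, SE 0.17) and a fold of 2.10 (95% interval 1.62 to 2.74). Its call was held under 14 of 18 alternatives, since the log2 fold change was 0.93 (adjusted p 0.00396) without steatosis pool 4 and 0.80 (adjusted p 0.00992) after scaling by the median ratio, both under the fold limit. Without initial pool 1 it was 1.07 (adjusted p 0.00415).

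ANXA13, an annexin of intestinal and renal epithelium, lies on chromosome 4 from 15707576 to 15765934 (gene ID 100155380). In the order of pools 1 to 4 the FPKM was 1.79, 2.4, 1.24 and 1.52 at the initial state and 4.54, 2.37, 1.36 and 5.87 in steatosis. Steatosis pools 4 and 1 were above all other libraries, as for ANXA4, while pools 2 and 3 lay within the range of the initial pools. The mean was 1.74 ± 0.496 FPKM (SD, n = 4) and 3.54 ± 2.05 FPKM (SD, n = 4), and the log2 fold change of 0.82 had a wide 95% interval from -0.08 to 1.72 (adjusted p 0.15, SE 0.40). Without steatosis pool 4 it was 0.52 (adjusted p 0.35) and without steatosis pool 3 it was 1.19 (adjusted p 0.028). In its pattern over the 8 libraries the nearest annexin was ANXA4, at rank 31.

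The spread between steatosis pools separated the annexins into an even and an uneven group. The highest steatosis pool was 1.16, 1.19, 1.12, 1.12 and 1.06 times the lowest for ANXA1, ANXA2, ANXA5, ANXA6 and ANXA11, against 1.85 times for ANXA4 and 4.32 times for ANXA13. Of the 5 listed bile duct genes 4 had pools 1 and 4 above pools 2 and 3, as ANXA4 and ANXA13 did, and so had 6 of 8 genes of stellate cells. KRT19, a keratin of bile ducts, had 4.76, 2.2, 2.14 and 8.13 FPKM in steatosis pools 1 to 4, SOX9 had 2.15, 0.71, 0.55 and 2.17 FPKM, and CFTR had 1.57, 0.81, 0.59 and 1.72 FPKM. COL1A1, the alpha 1 chain of type I collagen, had 44.2, 13.7, 16.7 and 75.2 FPKM in the same pools. EPCAM, an adhesion molecule of bile duct epithelium, had 10.2, 3.85, 4.61 and 6.47 FPKM. The exceptions were SPP1, or osteopontin, with pools 1 and 4 below the others (74.4, 226.5, 201.4 and 103.6 FPKM), LRAT, an enzyme of retinol storage, with 4.21, 4.45, 4.33 and 3.69 FPKM, and RGS5, with 2.66, 2.9, 4.52 and 5.57 FPKM. The order was also seen outside these lists. SLA-DRA, an antigen presentation gene and the nearest to ANXA4 in pattern, had 294.7, 263.9, 186.2 and 364.4 FPKM in steatosis pools 1 to 4. Of the macrophage genes, MARCO had 55.7, 47.0, 42.6 and 108 FPKM, while CD68 had the reverse, with 36.8, 63.8, 58.1 and 29.3 FPKM. The share of all tested genes with this order was not determined. SOX9, CFTR, LRAT, RGS5 and SLA-DRA were named after their values were seen.

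**Figure D3:**
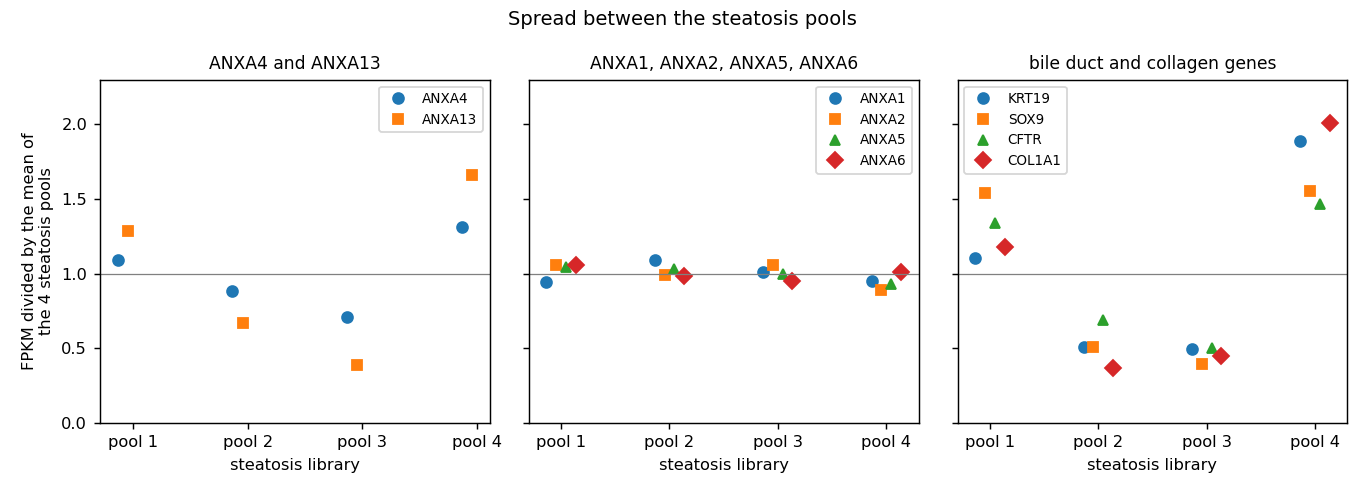
FPKM in each steatosis pool divided by the mean of the 4 steatosis pools, for ANXA4 and ANXA13 (left), for ANXA1, ANXA2, ANXA5 and ANXA6 (middle) and for genes of bile duct cells and collagen (right). ANXA4 and ANXA13 were highest in pools 4 and 1, as were KRT19, SOX9, CFTR and COL1A1, whereas the other annexins stayed close to 1 in every pool. SPP1 of the bile duct list and LRAT and RGS5 of the stellate cell list, which are not drawn, departed from this order.

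Over the groups, 1 of 5 listed genes of the bile duct list was called higher (SPP1) and 0 lower. Beside this and the lists below, 6.01% of all tested genes were called higher and 0.334% lower. The sum over the bile duct list was 10.1 to 24.6 FPKM at the initial state and 93.0 to 234.1 FPKM in steatosis. SPP1 alone had 4.16 to 9.64 FPKM at the initial state and 74.4 to 226.5 FPKM in steatosis, where it made up most of this sum in every pool. KRT19 itself had 3.98 ± 2.89 FPKM (SD, n = 4) at the initial state and 4.31 ± 2.83 FPKM (SD, n = 4) in steatosis. Of 8 genes of stellate cells 1 was called higher, and their sum was 54.7 to 142.5 FPKM and 102 to 291.3 FPKM. Of 7 endothelial genes and 8 hepatocyte genes 0 were called in either direction. The sums were 138.4 to 168.9 FPKM and 184.9 to 196.7 FPKM for endothelium, and 51890 to 81720 FPKM and 44130 to 53840 FPKM for hepatocytes. With an adjusted p under 0.05 and no fold limit, 1 bile duct, 3 stellate, 2 endothelial and 0 hepatocyte genes were higher. At the same limit 1 stellate gene was lower and 0 of the other lists were. These limits held for 26.7% (higher) and 2.28% (lower) of all genes. No defining gene of the bile duct or stellate lists named here was at 0 in steatosis. The part of these cells in the values of ANXA4 and ANXA13 was not tested.

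ANXA3, abundant in neutrophils, lies on chromosome 8 from 73970314 to 73993039 (gene ID 102166512). Its FPKM in pools 1 to 4 was 1.25, 2.54, 1.84 and 1.1 at the initial state and 2.67, 2.36, 2.34 and 2.91 in steatosis. The uneven group was the initial state, where pool 2 reached the range of the steatosis pools. The mean was 1.68 ± 0.655 FPKM (SD, n = 4) and 2.57 ± 0.272 FPKM (SD, n = 4), and the log2 fold change was 0.65 (SE 0.24, 95% interval 0.12 to 1.18, adjusted p 0.0652). Without initial pool 2 it was 0.86 (adjusted p 0.0136). Of 5 neutrophil genes 1 was called higher, CSF3R, the receptor of granulocyte colony-stimulating factor, against 6.01% of all tested genes. Not called were S100A8, S100A9, S100A12 and CXCR2, with log2 fold changes of -0.17, -0.66, 0.06 and 0.18. The sum over the 5 genes was 5.77 to 12.2 FPKM at the initial state and 8.86 to 14.3 FPKM in steatosis.

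ANXA10, an annexin of gastric epithelium, lies on chromosome 14 from 21249020 to 21315260 (gene ID 100627945). Its FPKM in pools 1 to 4 of the initial state was 6.11, 0.06, 0.04 and 0, and it was listed at 0 in all 4 steatosis pools. It was thus found almost entirely in the pool that also held genes of stomach mucosa, where TFF1, a secreted peptide of gastric mucus cells, had 727 FPKM against 6.03, 11.7 and 0 FPKM in the other initial pools and 0 in steatosis. GKN2 and GKN1, the gastrokines, had 381.4 and 308.9 FPKM there. The mean of ANXA10 at the initial state was 1.55 FPKM with pool 1 and 0.0333 FPKM without it. ANXA10 did not pass the filter on low values, and the two-sided exact permutation test of its mean gave p = 0.143. The part of stomach RNA in this value was not tested.

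**Figure D4:**
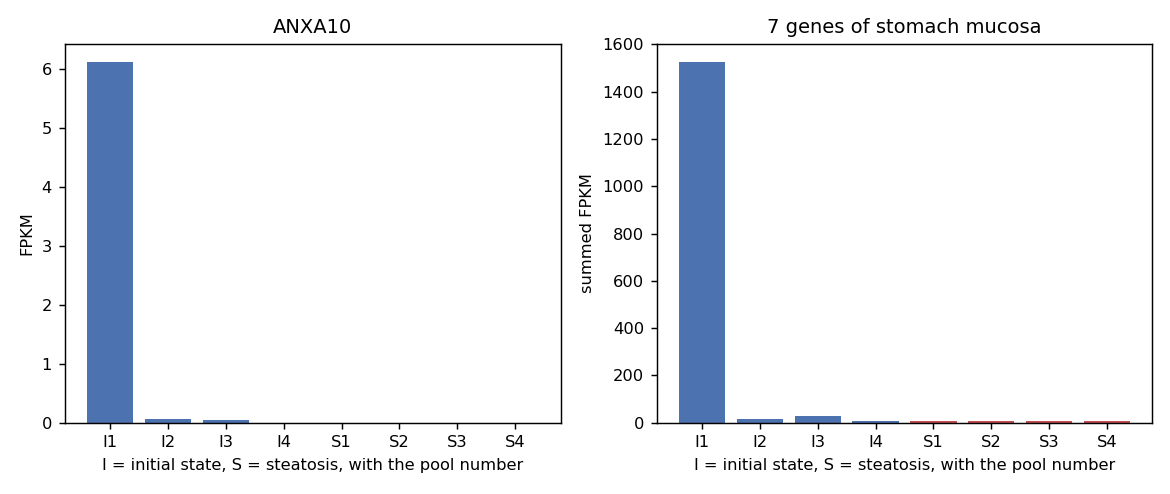
FPKM of ANXA10 (left) and summed FPKM of 7 genes of stomach mucosa (right) in the 8 libraries, with linear axes from 0 and 1 bar per library. Both were high in initial pool 1, with 6.11 and 1525 FPKM, and low in all other libraries.

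The summed FPKM of the 10 annexins was 183.5, 186.3, 168.6 and 164.3 in the initial pools and 320.7, 308.4, 300.8 and 303.2 in the steatosis pools, a ratio of means of 1.75. Within this sum the make-up shifted for 3 members. ANXA1 made up 5.12% ± 1.74 (SD, n = 4) of it at the initial state and 11.98% ± 0.979 (SD, n = 4) in steatosis, and the pools did not overlap. ANXA7 made up 16.1% ± 0.917 (SD, n = 4) and 9.15% ± 0.259 (SD, n = 4), and ANXA11 made up 10.3% ± 0.486 (SD, n = 4) and 8.92% ± 0.461 (SD, n = 4), also without overlap. The share of ANXA2, the largest, was 26.0% ± 1.98 (SD, n = 4) and 25.9% ± 1.89 (SD, n = 4). These shares do not depend on scaling between libraries and show unequal change among the members, not which of them changed. Beyond that, 7 members varied less between steatosis pools than between initial pools by their coefficient of variation. ANXA4 and ANXA13 varied more, and ANXA10, at 0 in steatosis, had no such value there. The share of all genes that varied less was not determined.

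**Figure D5:**
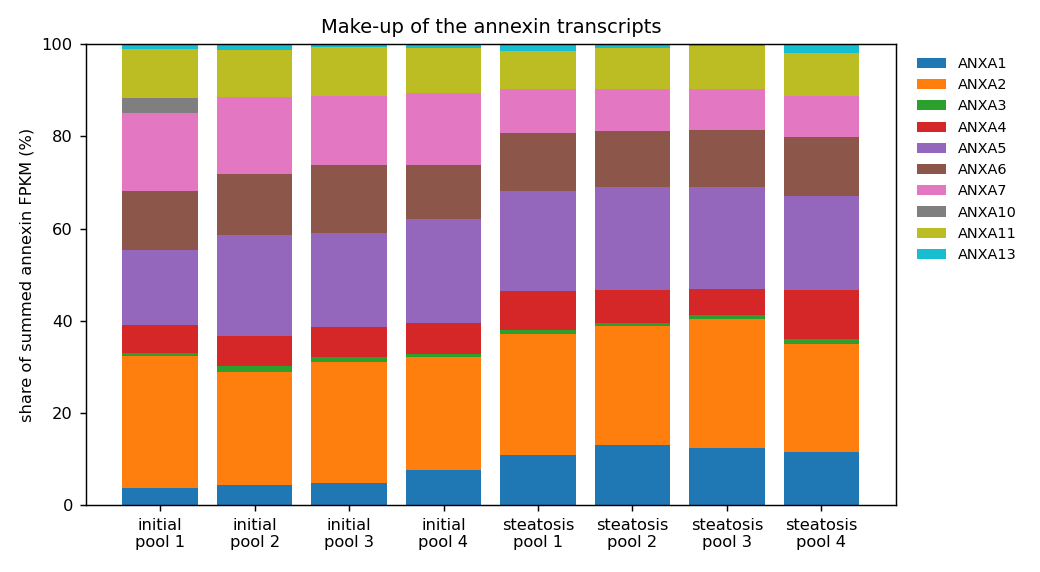
Share of each annexin in the summed annexin FPKM (%) of each of the 8 libraries, as stacked bars. The band of ANXA1 was 3.71 to 7.65% at the initial state and 10.8 to 13.1% in steatosis, that of ANXA7 became narrower, and that of ANXA10 is visible in initial pool 1 alone.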

How the data were processed

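Poly(A) RNA was sequenced as 100 bp paired reads (BGISEQ-500). The authors filtered reads, aligned them to Sus scrofa 11.1 (HISAT2 2.0.4), built transcript models (StringTie), included new coding ones in the reference and quantified genes (Bowtie2 2.2.5, RSEM 1.2.12). Versions are from the submitters' processing notes. The deposited values are FPKM per gene, with no stated scaling between libraries. RSEM divides reads shared by similar genes, which can affect paralogs. Transcript lengths of the deposited comparison tables served only to read relative depth from genes of 400 to 600 bp. The fold changes, p-values and FDR of the 4 deposited comparisons of single libraries were not used. FPKM gives no counting error, so precision is the SD between pools.

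Genes that reached 0.3 FPKM in 4 or more of 8 libraries were tested in R 4.3.3 by limma 3.58.1. Values were log2(FPKM + 0.1), a trend of variance on mean was allowed, the model held the group alone, and p was adjusted by Benjamini-Hochberg over all 13175 tested genes, so folds are on that scale and understated for low genes. The fit was tested on simulated data. Single values were compared by exact permutation. Tables and plots used Python 3.11.15, numpy 2.4.6, pandas 2.3.3 and matplotlib 3.10.9. Coordinates are those of RefSeq genes of Sscrofa11.1, matched for all 10 members. No sequences were used here.

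The labels number the pools 1 to 4 in each group and the paper states that the animals were the same. Same-numbered pools deviated together from their group means (correlations of 0.16, 0.35, 0.32 and 0.25 for pools 1 to 4, each over 0.1), so the numbers were taken to pair the libraries, and a model with a replicate block by pool was tried. The blocked model changed the call of 0 members. Differently numbered pools were not compared, so whether a number stands for the same pigs was not settled. Other alternatives were the pseudocount, the filter, 3 scalings, no trend, another limit and each library left out.

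Named are all members, all listed partners, at most 3 genes of highest mean of each cell type list, and the 3 genes nearest in pattern to the members with the highest and the lowest log2 fold change. Further genes (the called macrophage, bile duct and neutrophil genes, CD163, S100A8, S100A9, SOX9, CFTR, LRAT, RGS5, SLA-DRA, ANXA8 and ANXA9) were named after their values were seen. A partner gene and a gene near ANXA1 in pattern are not reported here. Members and lists were chosen with earlier results of these data known.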

Additional observations from a re-analysis of the deposited data

Results flagged for a closer look

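In 49 groups of 4 pools (annexins and partner genes in either state), the gap between the highest or lowest pool and its nearest neighbour was set against the whole range of the group, and 5 groups held a pool that lay far from the other 3. By chance alone about 1 in 20 groups would be marked in this way. Among the annexins these were ANXA10, with 6.11 FPKM in initial pool 1 and at most 0.06 FPKM in the others, and ANXA4, with 12.16 FPKM in initial pool 2 and 10.91 to 11.05 FPKM in the others, a small difference within a very even group. Among the partners, TRIM72 had 1.47 FPKM in initial pool 1, S100A10 had 189 FPKM in steatosis pool 1 and CHMP4B had 40.64 FPKM in steatosis pool 1. Initial pool 1 also held the genes of stomach mucosa and skeletal muscle, and their part in the values of ANXA10 and TRIM72 was not tested.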

How the results depend on the processing

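The number of annexins called higher was 2, and it was 1 after upper quartile scaling, after median ratio scaling, alone or with the replicate block, and 6 with an adjusted p under 0.05 and no fold limit. Leaving out single libraries gave 1 to 2, with 1 only without steatosis pool 4. The number of partner genes called higher was 4. It was 2 without the filter and after upper quartile or median ratio scaling, 1 with median ratio scaling and the replicate block, 7 with an adjusted p under 0.05 and no fold limit, and 1 to 4 when single libraries were left out. ANXA7 reversed its sign after upper quartile scaling (-0.23) and after median ratio scaling with or without the replicate block (-0.27), and ranged from -0.0492 to 0.0526 over left-out libraries. The difference in the log2 ratio of S100A10 to ANXA2 ranged from -0.24 to 0.0143 over left-out libraries, with the sign turned only without initial pool 2. The causes of these changes were not tested. With the replicate block alone, which uses the pairing by pool number, ANXA1 was at 2.08 (adjusted p 0.000302) and ANXA4 at 1.07 (adjusted p 0.00324), the counts stayed at 2 annexins and 4 partners, and it changed no other call of a member. ANXA1 kept its call under all alternatives.

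Over all tested genes, 792 higher calls became 395 with a pseudocount of 1, 439 after upper quartile scaling, 411 and 412 after median ratio scaling without and with the block, and 3519 with an adjusted p under 0.05 and no fold limit. The 44 lower calls became 73, 83, 87 and 300 under the same scalings and under that p with no fold limit, and 29, 28 and 26 without initial pool 2, steatosis pool 2 and steatosis pool 4. Pools of 2 animals, 4 in each group, and the confounding of diet with age and sampling limit these results, and low levels such as those of ANXA3, ANXA10 and ANXA13 carry the least precision. Read counts were not used here, so counting error is unknown.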

Other observations

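Besides the 10 annexins described, ANXA9 and ANXA8 were listed in the same table and were looked at after their values were seen. ANXA9, an annexin that has lost much of its calcium binding, lies on chromosome 4 from 98224436 to 98243957 of Sscrofa11.1. It had 0.79, 0.68, 0.75 and 0.49 FPKM in initial pools 1 to 4 and 2.2, 1.36, 1.12 and 2.71 FPKM in steatosis, so the groups did not overlap, and pools 4 and 1 were the highest in steatosis, as for ANXA4 and ANXA13. The log2 fold change was 1.26 (adjusted p 0.00842 by limma, SE 0.28), and it was called under 5 of 18 alternatives. The replicate block by pool number ended the call (adjusted p 0.016, and 0.0301 together with median ratio scaling). Leaving out a single library gave log2 fold changes between 1.06 and 1.46, with an adjusted p under 0.01 only without steatosis pool 3 (0.00612).

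ANXA8 had 0.43, 0.45, 0.74 and 0.03 FPKM in initial pools 1 to 4 and 0.06, 0, 0.03 and 0.08 FPKM in steatosis. It did not pass the filter, its pools overlapped, and an exact permutation test (two-sided) gave p = 0.114.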
